A study of Mus musculus with 11 samples.

Results

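The Slit, Robo and netrin guidance genes were followed as 10 members chosen by symbol, namely the receptors Robo1, Robo2, Robo3, Dcc, Unc5c and Unc5d and the ligands Slit1, Slit2, Slit3 and Ntn1. All 10 were found among the 20475 genes of each of the 2 deposited tables of normalized counts, one value per gene and library. The study asked how loss of Kif20a, a mitotic kinesin that acts in cytokinesis, changes the cortex, and both tables compare Kif20a knockout with wild-type mouse tissue at embryonic day 12.5 (E12.5). The labels call this tissue forebrain and its cells neural cells, and the paper calls it cortex.

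The germline comparison held 3 wild-type (WT) and 3 knockout libraries. Its knockouts were homozygous for a knockout-first allele, in which a cassette with LacZ and a neomycin resistance gene lies after exon 4 of Kif20a, and both strains of the study came from 1 embryonic stem cell clone. Of the 5 inducible libraries, called conditional in the labels, 2 were wild type and 3 knockout. The knockouts carried floxed Kif20a alleles and CreERT2, a tamoxifen-dependent Cre recombinase, driven by Nestin, so that deletion was directed to neural progenitors and their progeny. Their controls carried the same floxed alleles without Cre, and both groups were exposed to tamoxifen given to the mother at E9.5 and on the following day. The labels do not say whether embryos were pooled or how libraries share litters, so the spread given here is that between libraries.

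Slits are secreted proteins that repel growing axons and migrating neurons through Robo receptors. Netrin-1, the product of Ntn1, attracts axons through Dcc and repels them where an Unc5 receptor is present. Robo3 departs from its relatives in that it favours the crossing of commissural axons at the ventral midline. In the embryonic forebrain these genes steer corticofugal, thalamocortical and commissural axons and the migration of interneurons, and Slit and Robo genes also act in cortical progenitors.

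Kif20a checked the labels. It fell to between 374 and 503 normalized counts in the germline knockouts from between 2295 and 2680 in their wild types, and to between 2853 and 3125 from between 4760 and 4844 in the inducible libraries. Emx2, which marks the dorsal telencephalon, lay between 1225 and 2163 in the germline and between 2708 and 4536 in the inducible libraries, and 8 Hox genes, markers of hindbrain and spinal cord, did not exceed 2.93 in any library. En2 and En1 are genes of midbrain and hindbrain. En2 held 24.5, 22.9 and 20.1 normalized counts in the germline knockouts, against at most 0.92 in the wild types, and was called higher. En1 held 29.2, 0 and 4.02 in knockout replicates 1, 2 and 3, against at most 0.42. In the inducible libraries, whose floxed allele lacks the cassette, En2 held 0 and 6.29 in the wild types and at most 1.06 in the knockouts. Whether the germline En2 signal came from such tissue or from the targeted allele was not tested. Germline knockout replicate 2 stood apart from all other libraries, at 91.2 on a first principal component with 58% of the variance where the other 5 libraries lay between -38.4 and 3.84. Germline fold changes of the members and the counts of called genes are therefore given with and without it. Of 4 Y-linked genes, none exceeded 3.17 normalized counts in the inducible wild types, and 3 stood at 265 or more in all 3 inducible knockouts (Ddx3y was at 2 in replicate 2), so sex and genotype cannot be told apart there, and in the germline table both groups held libraries with and without Y-linked signal.

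The members were picked with their knockout against wild-type values in these tables already known. Their changes are therefore described, without P values for single members. Fold changes are differences of log2(normalized count + 1) from a limma fit over all genes of a table that averaged 10 or more normalized counts over its libraries, with their standard error (SE). A member is called where its fold change was at least 1.5 and its unadjusted P at most 0.05. In bulk tissue, fewer cells of a type and less RNA per cell cannot be told apart, which holds for every value below.

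Wild-type levels were ordered per kilobase of exon, with lengths from the GENCODE annotation of mm9. Dcc was the highest member in both tables, at 547 ± 104 normalized counts per kb (SD, n = 3 libraries) in the germline and 986 ± 241 (SD, n = 2) in the inducible wild types. Robo1 came next, at 168 ± 37.3 and 301 ± 63.9, followed by Ntn1, at 100.2 ± 43.0 and 246 ± 81.7. The ranges of Dcc and Robo1 did not overlap in either table, whereas those of Robo1 and Ntn1 did. In the germline table Slit1 (99.2 ± 27.0), Slit2 (93.4 ± 23.0), Robo2 (79.9 ± 3.30) and Robo3 (65.1 ± 29.6) followed within overlapping ranges, and Unc5d (25.4 ± 14.0), Unc5c (22.8 ± 4.53) and Slit3 (16.3 ± 2.67) formed the low end. In the inducible wild types Slit2 (216 ± 20.2), Slit1 (143 ± 68.3), Robo3 (132 ± 2.62) and Robo2 (109 ± 5.15) stood in the middle, and of these neighbours only Slit1 and Robo3 overlapped. Unc5c, Slit3 and Unc5d were the lowest per kb there too, at 38.2 ± 7.92, 33.3 ± 0.29 and 20.4 ± 6.13. With the longest transcript as the length, Dcc stayed first, the same 3 genes stayed lowest and Slit2 moved up to the third and second place. The tables were normalized separately, and no level is compared between them.

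Robo3 was the only member above the mean log2 level of its wild types in all 6 knockout libraries, in germline knockout replicate 1 by no more than 0.05. The gene spans 17.5 kb of the minus strand of chromosome 9, from 37223254 to 37240760 in mm9. Its germline wild types held 277, 381 and 664 normalized counts and the knockouts 426, 1534 and 758. The highest wild type stood above the lowest knockout, so the groups overlapped, and the means were 441 ± 200.3 and 906 ± 568 (SD, n = 3 each). The log2 fold change was 0.94 (SE 0.50), and 0.46 without knockout replicate 2.

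After induced deletion Robo3 held 2088, 1129 and 1318 normalized counts against 885 and 909.96 in the wild types. Every knockout lay above both wild types, which differed from each other by a factor of 1.03. The mean rose from 897 ± 17.8 (n = 2) to 1512 ± 508 (n = 3), or 168.5% of wild type, with a log2 fold change of 0.70 (SE 0.23). Replicate 1 was the highest knockout, and without it the fold change was 0.44 and Robo3 was no longer called. The values of Robo3 in this table are written with 2 decimals, as are those of 106 genes in all, whereas the other members and most genes carry up to 9 decimals. It is the only member among these 106, of which 104 stand at another row position than in the germline table. The paper lists Robo3 among the genes up-regulated in its inducible knockouts. It also lists Syt4 and Eif2s3y as up-regulated and Rspo1 and Rspo2 as down-regulated there. The values of these genes are likewise written with 2 decimals. The rows so written equal in number the genes the paper reports as changed in its inducible knockouts, both directions together. Whether the other rows so written are those genes was not tested. Why they are written differently, and whether this bears on the values, was not tested.

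Robo1, a Slit receptor, spread widely among the germline knockouts. It held 1205, 1889 and 1719 normalized counts in the wild types and 2487, 3488 and 1212 in the knockouts (1605 ± 356 against 2396 ± 1141, SD, n = 3 each). Replicates 1 and 2 lay above every wild type while replicate 3 was next to the lowest of them, and the log2 fold change was 0.47 (SE 0.38), or 0.14 without replicate 2. In the inducible libraries Robo1 stood at 3301 and 2439 in the wild types and at 2985, 3027 and 4241 in the knockouts. Only knockout replicate 3 exceeded both wild types, and the log2 fold change of 0.25 (SE 0.18) came with a standard deviation of 609.8 normalized counts between the wild types.

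Robo2, the close relative of Robo1 on the same chromosome, had the tightest germline wild types of all members, at 1381, 1301 and 1276 normalized counts. Its knockouts split around them, with 884 and 664 in replicates 1 and 3 and 3423 in replicate 2. A mean of 1657 ± 1534 against 1319 ± 54.6 (SD, n = 3 each) thus describes none of the knockouts, and the log2 fold change of -0.06 (SE 0.56) became -0.78 without replicate 2 and 0.40 without replicate 3. No such split appeared in the inducible table, with 1739 and 1859 in the wild types and 2066, 1771 and 2132 in the knockouts (log2 fold change 0.14, SE 0.09).

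Dcc, the netrin receptor for attraction, covers 1092.3 kb of chromosome 18 and was again split in the germline knockouts. Wild types held 3785, 5367 and 4093 normalized counts and knockouts 3473, 16423 and 3142. Replicate 2 lay over 3-fold above the highest wild type and replicates 1 and 3 lay below the lowest. The means were 4415 ± 838 and 7679 ± 7574 (SD, n = 3 each), and the log2 fold change of 0.37 (SE 0.60) turned to -0.40 without replicate 2. The inducible wild types bracketed their knockouts, with 9326 and 6582 against 8102, 7251 and 7049 (log2 fold change -0.07, SE 0.14). Without one or the other wild type it was -0.32 or 0.18.

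Unc5c and Unc5d encode receptors through which netrin repels, and they differed from each other across libraries. Unc5c held 213, 304 and 313 normalized counts in the germline wild types and 869, 267 and 276 in the knockouts. Knockout replicate 1 alone stood high, and the log2 fold change was 0.55 (SE 0.46), 0.84 without replicate 2 and -0.007 without replicate 1. Unc5c was at 533 and 397 in the inducible wild types and at 424, 567 and 459 in the knockouts, with overlapping groups and a log2 fold change of 0.06 (SE 0.16), which was -0.15 or 0.27 without one or the other wild type.

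Unc5d had the largest spread of the members in the germline table. Wild types held 329, 264 and 88.07 normalized counts, and knockouts 58.05, 494 and 72.35. Replicates 1 and 3 lay below and replicate 2 above all wild types, so the log2 fold change of -0.62 had an SE of 0.87 and reached -1.59 without replicate 2. Inducible knockouts held 219.5, 234 and 301 against 221 and 143 in the wild types. The lower wild type was below every knockout and the other was not, and the log2 fold change of 0.48 (SE 0.21) ranged from 0.17 to 0.79 when single libraries were left out.

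**Figure D1:**
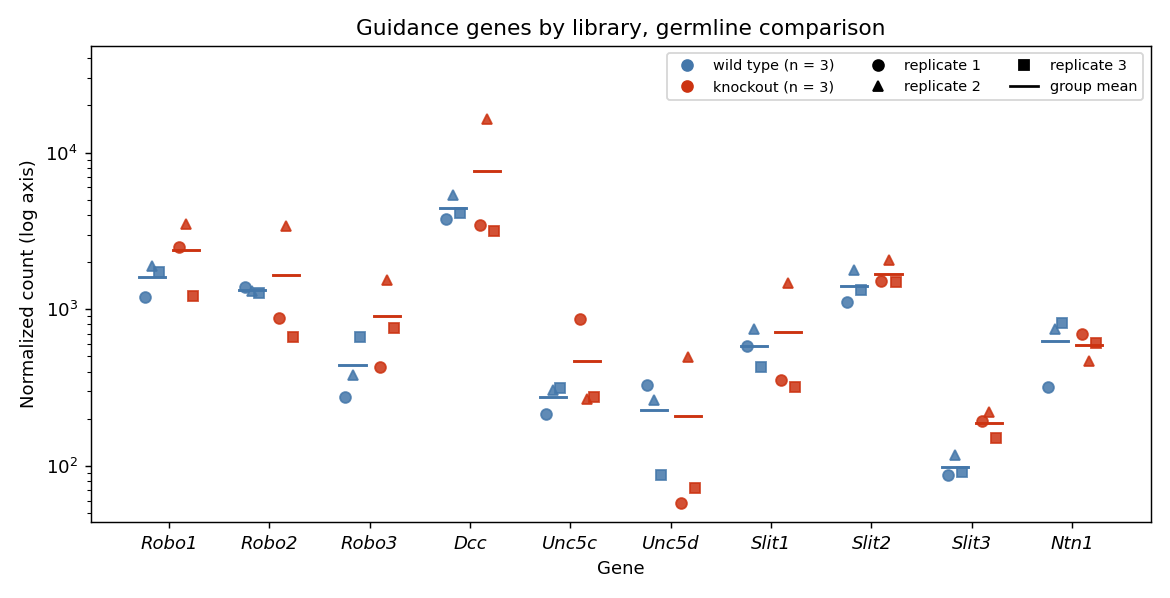
Normalized counts of the 10 members (log axis) in the 6 germline libraries, with wild type in blue, knockout in red, one marker shape per replicate number and a bar at each group mean. Knockout replicate 2 (triangle) lies above and replicates 1 and 3 below all wild types for Robo2, Dcc, Unc5d and Slit1, and for Slit3 alone do all knockouts lie above all wild types.

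Among the ligands, Slit3 was the member called in the germline comparison. The gene lies on the plus strand of chromosome 11, from 34934726 to 35522009 in mm9, and outside the nervous system is known for its part in forming the diaphragm. Its wild types held 87.4, 118 and 92.2 normalized counts and its knockouts 192, 220.3 and 152. All knockouts stood above all wild types, and the mean rose from 99.05 ± 16.2 to 188 ± 34.5 (SD, n = 3 each), or 189.9% of wild type. The log2 fold change was 0.91 (SE 0.23), 0.79 without replicate 2, and between 0.79 and 1.06 when any single library was left out.

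In the inducible libraries Slit3 lay the other way, at 171, 181 and 137 normalized counts in the knockouts against 201.0 and 203.5 in the wild types. The groups did not overlap, the mean was 163 ± 23.1 (n = 3) against 202 ± 1.78 (n = 2), and the log2 fold change was -0.32 (SE 0.15), short of the 1.5-fold threshold and -0.20 without knockout replicate 3. Markers of the cortical hem and choroid plexus were lower in the same libraries, with a mean log2 level of -0.19, -0.22 and -1.07 in knockout replicates 1, 2 and 3 relative to the wild types. Of these 11 genes 0 had a log2 fold change above 0, 1 of them, Rspo1, was called lower by limma, and 3 had an unadjusted P of 0.05 or less. Their summed level ranged from 9286 to 11270 in the wild types and from 4555 to 9086 in the knockouts, and their part in the Slit3 value was not tested.

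Slit2, with Slit1 the main Slit of the forebrain, showed the same pair of directions with smaller sizes. Germline wild types held 1109.5, 1789 and 1329.6 normalized counts and knockouts 1521, 2060.05 and 1487. The groups overlapped through wild-type replicate 2, and the log2 fold change was 0.27 (SE 0.22), or 0.12 without knockout replicate 2. Inducible knockouts held 2413, 2675 and 2647 against 3481 and 3051 in the wild types. Here the groups were separate, with means of 2578 ± 143.5 (n = 3) and 3266 ± 304 (n = 2), and the log2 fold change of -0.34 (SE 0.08) stayed between -0.43 and -0.24 with single libraries left out. Whether the Slit2 and Slit3 changes differ between the germline and inducible knockouts was not tested.

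Slit1 followed the split seen for Robo2 and Dcc. It held 585, 748 and 429 normalized counts in the germline wild types and 354, 1480.2 and 319.5 in the knockouts, with replicate 2 above and the other two knockouts below every wild type. The log2 fold change of -0.06 (SE 0.58) became -0.77 without replicate 2 and 0.34 without replicate 3. The 2 inducible wild types differed 2.02-fold, at 1131 and 559.6, and held the knockouts between them, at 737, 963 and 953. Leaving out one or the other wild type moved the log2 fold change of 0.14 (SE 0.27) to 0.65 or to -0.37.

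Ntn1, a gene of the floor plate and of the ventral telencephalon, did not separate the groups in either table. Germline wild types held 320.8, 745 and 822 normalized counts and knockouts 696.5, 466 and 608, and the log2 fold change was 0.002 (SE 0.37), or 0.16 without knockout replicate 2. Leaving out wild-type replicate 1, the lowest library, gave -0.43. Inducible wild types at 1905 and 1179 bracketed 2 of the knockouts, which held 1451, 1662 and 2077, and the log2 fold change of 0.19 (SE 0.21) was -0.15 or 0.54 without one or the other wild type. In the GENCODE annotation, 127 exon bases of Ntn1 are shared with a second transcript on the same strand, and no other member shares exon bases with a neighbour. The deposited counts were made on RefSeq exons, and whether this overlap affected them was not tested.

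**Figure D2:**
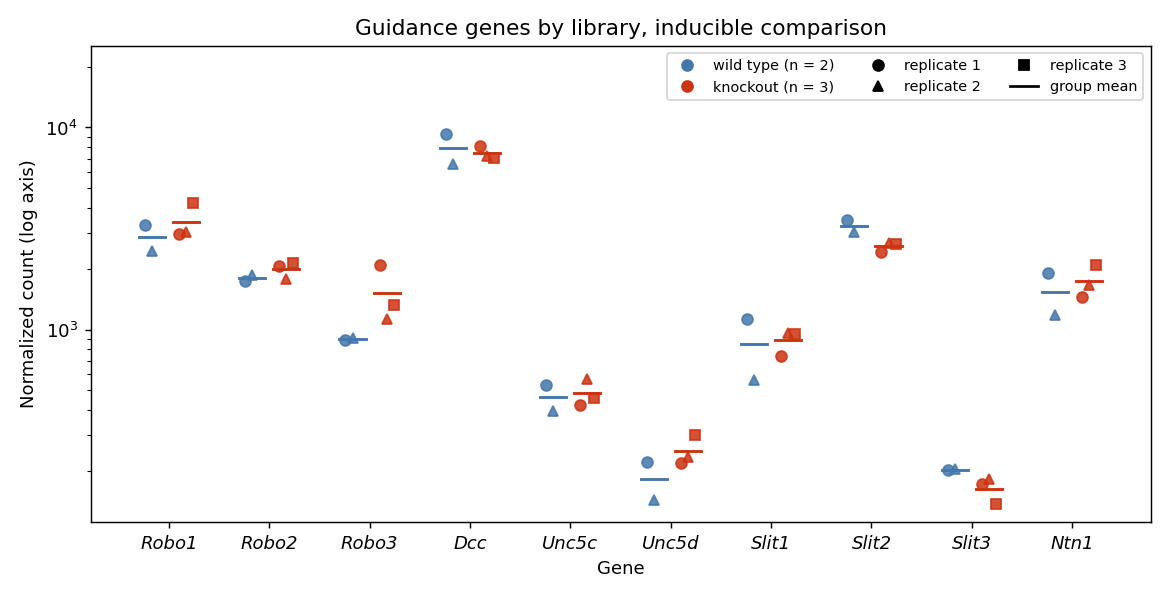
Normalized counts of the 10 members (log axis) in the 5 inducible libraries, drawn as in the plot of germline values with one marker shape per replicate number and a bar at each group mean. All knockouts lie above both wild types for Robo3 and below them for Slit2 and Slit3, and the groups overlap for the other 7 members.

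Counted together, 1 of the 10 members was called higher and 0 lower in the germline knockouts, where limma called 2.74% of the 13938 genes tested, 2.07% of them higher and 0.667% lower. Groups did not overlap for 1 member, which was higher, against 13.5% of all genes (5.9% higher and 7.55% lower). The log2 fold change was above 0 for 7 members, against 44.0% of all genes, and its median was 0.32 against -0.04 over all genes. Without knockout replicate 2 it was above 0 for 6 members, against 44.4% of all genes, with a median of 0.13 against -0.04.

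In the inducible knockouts 1 member was called higher and 0 lower, with 1.29% of 14081 genes called, 0.802% of them higher and 0.49% lower. Groups did not overlap for 3 members, 1 higher and 2 lower, against 22.6% of all genes (10.4% higher and 12.2% lower). Here 7 members had a log2 fold change above 0, against 49.2% of all genes, with a median of 0.14 against -0.002. With limma, 0 of the 10 members had an adjusted p under 0.05 in either comparison, as had 0.00717% of all germline and 0.0355% of all inducible genes. At an unadjusted P of 0.05 or less stood 1 member in the germline and 2 in the inducible table, against 5.39% and 6.01% of all genes.

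Leaving out germline knockout replicate 2 changed which members were called. Without it limma called 8.77% of 14008 genes, 4.19% higher and 4.58% lower, and 4 members were called, of which Robo2, Slit1 and Unc5d were lower and Slit3 higher. Slit3 was called in the full set and under each of the 16 alternative settings. Robo3 was called higher when wild-type replicate 3 or knockout replicate 1 was left out, and Robo1 was called higher without knockout replicate 3. For the inducible comparison, leaving out knockout replicate 1 ended the call of Robo3. With one wild type left out, the other stands alone and is assumed to vary as the knockouts do. Robo3 was then not called, although its log2 fold change was 0.68 or 0.72, and Slit1 and Unc5d were called higher without wild-type replicate 1.

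**Figure D3:**
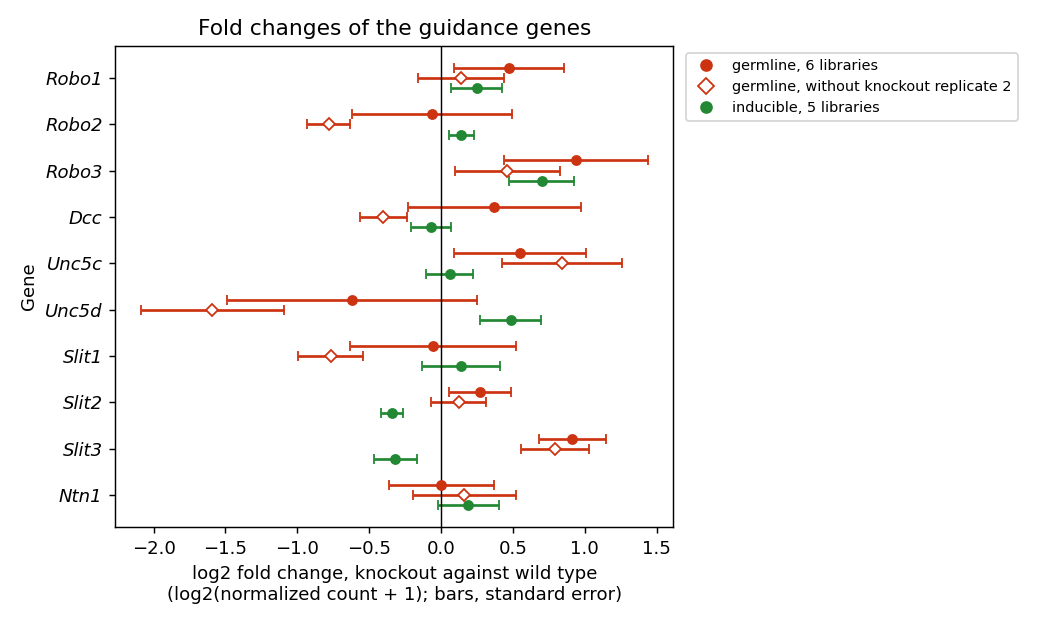
Log2 fold change of each member, knockout against wild type, on the log2(normalized count + 1) scale with bars of 1 standard error, for the 6 germline libraries (red circles), the germline libraries without knockout replicate 2 (open diamonds) and the 5 inducible libraries (green circles). Slit3 lies at 0.91 for the germline and at -0.32 for the inducible libraries, Robo3 lies above 0 in both, and Robo2, Dcc, Slit1 and Unc5d shift down once knockout replicate 2 is left out.

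The split of the germline knockouts, with replicate 2 above and replicates 1 and 3 below every wild type, was noticed after the values were seen. It held for 4 of the 10 members, Dcc, Robo2, Slit1 and Unc5d, and for 8.47% of all genes tested. Of 25 neuron markers, 19 had the same split, among them Tubb3, a neuronal tubulin, and the transcription factors Neurod2 and Tbr1 of cortical neurons. The mean log2 level of the neuron markers stood at 0.95 relative to the wild-type mean in replicate 2 and at -1.09 and -0.80 in replicates 1 and 3, and the summed level of the list ranged from 65560 to 79310 in the wild types and from 35910 to 138400 in the knockouts. By contrast the split held for 1 of 15 radial glia markers. Replicate 2 also held less signal from cells outside the neural tissue, to a degree that differed between markers. It held 0.66 normalized counts of Twist1 and 11.5 of Col1a1, both of cranial mesenchyme, and 4.26 of Cx3cr1, a microglial gene. Prrx1, of the same mesenchyme list, still held 427. Endothelium markers summed to 854.6, against 1626 to 3222 in the wild types. Markers of red blood cells summed to 21810, against 63980 to 92890. The part of the neuron content in the values of the 4 members was not tested.

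Unc5c had a pattern of its own. It was the only member for which germline knockout replicate 1 exceeded every other library by more than 2-fold, as did 1.41% of all genes tested. The same held for 7 of 15 tested diencephalon markers, among them Gbx2, a transcription factor of the thalamus, at 207.9 normalized counts against at most 19.7 in the other libraries, and Tcf7l2, at 3212 against at most 638. It also held for 6 of 13 cranial mesenchyme markers. Replicate 1 stood 2.55 (log2) above the wild-type mean of the diencephalon list, whose summed level ranged from 4876 to 8563 in the wild types and from 7307 to 14790 in the knockouts. The part of these markers in the Unc5c value was not tested.

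The hypoxia list was high in 2 of the germline knockouts, at 2.64 and 3.07 (log2) above the wild-type mean in replicates 1 and 2 and at 0.19 in replicate 3, and 13 of its 15 genes were called higher. Its summed level ranged from 17730 to 17890 in the wild types and from 21390 to 82430 in the knockouts. Slit3 was raised in the same 2 libraries by 0.96 and 1.16 and in replicate 3 by 0.62. Robo1 stood at 0.66, 1.15 and -0.38 relative to the wild-type mean in replicates 1, 2 and 3. The 11 hem and choroid plexus markers lay 0.28, 0.42 and 0.32 above the wild-type mean in replicates 1, 2 and 3, with Rspo1, Rspo2 and Rspo3, secreted enhancers of Wnt signalling, called higher and Ttr, a choroid plexus gene, called lower. Their summed level ranged from 5078 to 8338 in the wild types and from 6007 to 7098 in the knockouts. The part of either list in the Slit3 value, and of the hypoxia list in the Robo1 value, was not tested.

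**Figure D4:**
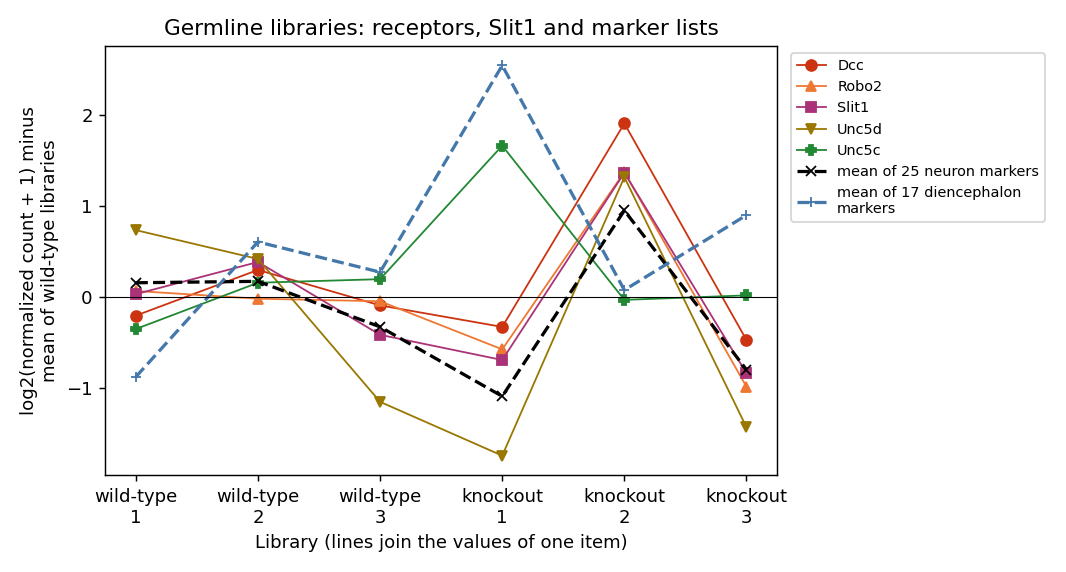
Log2(normalized count + 1) minus the wild-type mean in each germline library, for 5 members (solid lines) and for the mean of the neuron and diencephalon marker lists (dashed lines); lines only join the values of one item. Dcc, Robo2, Slit1, Unc5d and the neuron markers (0.95) rise in knockout replicate 2, whereas Unc5c and the diencephalon markers (2.55) peak in knockout replicate 1.

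In the inducible table the libraries differed in their ventral content. Summed levels of 15 ventral telencephalon markers ranged from 9673 to 17090 in the wild types and from 10240 to 20910 in the knockouts, and Nkx2-1, a transcription factor of the medial ganglionic eminence, ranged from 79.0 in wild-type replicate 2 to 1911 in knockout replicate 3. From low to high, the mean of these markers put wild-type replicate 2 first, then knockout replicates 1 and 2, wild-type replicate 1 and knockout replicate 3. The means of the neuron and endothelium markers had the same order over a narrower span, from -0.19 to 0.32 and from -0.15 to 0.36 (log2, relative to the wild types), against -0.69 to 0.94 for the ventral markers. Robo1 and Ntn1 had exactly this order, as did 3.03% of all genes tested. Slit1, Dcc, Unc5c and Unc5d were also lowest in wild-type replicate 2, and Unc5d was highest in knockout replicate 3. The share of all genes lowest in wild-type replicate 2 was not counted. The ventral order, too, was noticed after the values were seen, and the part of these 3 lists in the values of these members was not tested. Robo3 had another order, with both wild types lowest and knockout replicate 1 highest.

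**Figure D5:**
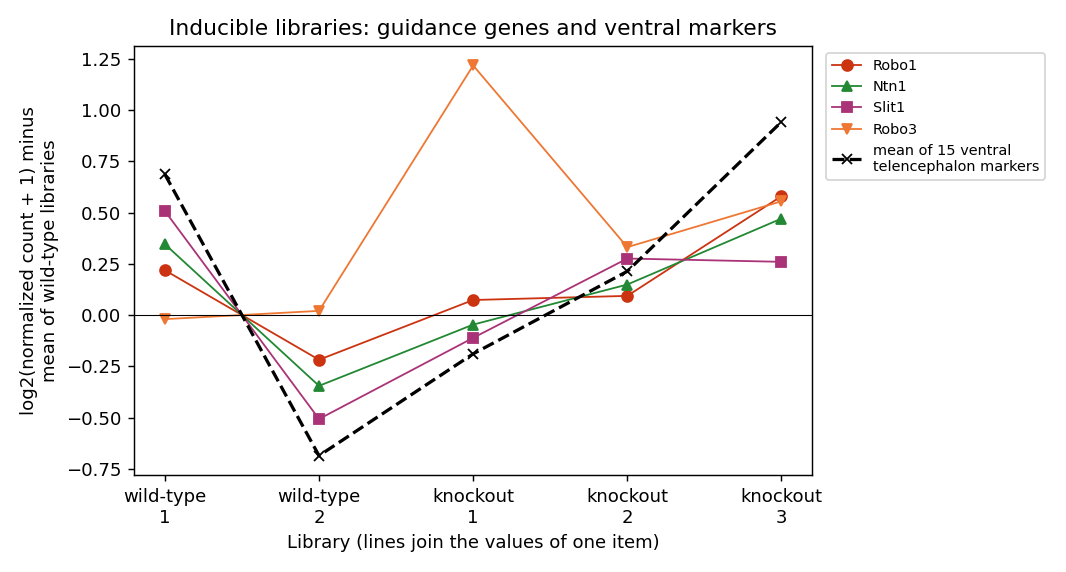
Log2(normalized count + 1) minus the wild-type mean in each inducible library, for Robo1, Ntn1, Slit1 and Robo3 (solid lines) and the mean of 15 ventral telencephalon markers (dashed line); lines only join the values of one item. Robo1 and Ntn1 follow the order of the ventral markers, lowest in wild-type replicate 2 and highest in knockout replicate 3, and Robo3 peaks in knockout replicate 1.

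Other genes of the pathway comprised 10 ligands and ligand-like proteins, 15 receptors and coreceptors and 29 intracellular mediators. Of the 53 that were tested in the germline comparison, limma called 0 in either direction, against 2.74% of all genes. Pitpna was the 1 gene among them with an unadjusted P of 0.05 or less, against 5.39% of all genes. In the inducible comparison 1 of 53 was called, against 1.29% of all genes. This was the ligand Ntng1, or netrin-G1, a membrane-anchored netrin relative. It held 75.0 and 45.1 normalized counts in the wild types and 82.5, 91.4 and 103.8 in the knockouts, with a log2 fold change of 0.66 (SE 0.24) and an adjusted p of 0.826 in limma. It was no longer called without wild-type replicate 2 or without knockout replicate 2 or 3. Without germline knockout replicate 2, 5 of the 54 listed pathway genes were called, against 8.77% of all genes tested (4.19% higher and 4.58% lower). Draxin (-0.96), Ntng2 (-0.95), Dscam (-0.96) and Dscaml1 (-1.16) were lower and Ntn3 (0.89) was higher on the log2 scale. Draxin is a secreted axon repellent, and Dscam and Dscaml1 are adhesion molecules that act in guidance. Draxin, Ntng2, Dscam and Dscaml1 were among the 4 of 9 ligands and 4 of 15 receptors with the split of Dcc and Robo2. That split puts knockout replicates 1 and 3 below every wild type, so it restates their lower values without replicate 2. Of all genes tested, 8.47% had this split.

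Unc5b, an Unc5 receptor outside the members that was named after its values were seen, had separate groups in both tables with opposite directions. Groups were separate for 13.5% of all germline and 22.6% of all inducible genes. Unc5b held 214, 403 and 391 normalized counts in the germline wild types against 591, 469 and 412 in the knockouts. Its inducible wild types held 1236 and 1186 against 857, 983 and 954 in the knockouts. The log2 fold changes were 0.59 (SE 0.28), or 0.61 without knockout replicate 2, and -0.38 (SE 0.08), and neither passed both thresholds. The difference between them was not tested.

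Of 31 semaphorin, neuropilin and plexin genes, another family of guidance cues and receptors, 30 were tested in each table. In the germline comparison limma called 1 of them, against 2.74% of all genes. This was Sema3f, a secreted repellent, which was higher, at 165, 154 and 197 normalized counts in the wild types and 373, 353 and 201 in the knockouts (log2 fold change 0.80, SE 0.27). This call was lost without wild-type replicate 1 or 2 or knockout replicate 1. Without knockout replicate 2, 5 of the 30 were called, against 8.77% of all genes. Sema3f (0.68) was higher and Plxna2 (-0.96), Plxna4 (-1.31), Sema6d (-0.59) and Sema7a (-0.63) were lower. In the inducible comparison limma called 0, against 1.29% of all genes. There 5 of the 30 had an unadjusted P of 0.05 or less, against 6.01% of all genes. The split of the germline knockouts was found for 7 of the 30, including the semaphorin receptors Plxna2 and Plxna4, and for 8.47% of all genes.

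The genes most like the called members in their course over the libraries were ranked by the lower of 2 Pearson correlations, over the 6 germline and the 5 inducible libraries, among 13740 genes tested in both tables. For Robo3 these were Rufy2 (r = 0.933 and 0.945), Med12l (0.93 and 0.99) and Taf15 (0.97 and 0.919). For Slit3 they were Cchcr1 (0.949 and 0.944), Bmp2 (0.932 and 0.989) and Tmem132c (0.931 and 0.962). Bmp2, a secreted growth factor, held 10.85, 22 and 24.04 normalized counts in the germline wild types and 47.6, 72.9 and 32.15 in the knockouts. Its inducible libraries held 82.75 and 90.5 in the wild types and 50.7, 51.15 and 14.3 in the knockouts, so it was separate in both tables and opposite in direction, as Slit3 was. With so few libraries per table, which each share their composition across genes, these correlations are a description.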

How the data were processed

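Poly(A) RNA of 11 libraries was sequenced on an Illumina HiSeq system. Reads had been mapped by the authors to mm9 (TopHat, 1.2.0 in the submitters' processing notes), counted on RefSeq exons and scaled in edgeR by the trimmed mean of M-values. The signal deposited by the authors is this normalized count, equalized within a table, so that totals (13048716 to 15551274 in the germline and 24118520 to 24497307 in the inducible table) do not give depth, and a shift common to most genes would be hidden. As the values are not whole numbers, count models were not used.

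Each table was analysed alone as log2(value + 1), which understates changes of low genes, with limma 3.58.1 in R 4.3.3 (eBayes with trend, two-sided tests), for genes averaging 10 or more. Calls used the study's thresholds of 1.5-fold and P of 0.05, with Benjamini-Hochberg adjustment added. The fit was also run on simulated counts with known changes and a common dispersion for all genes. These counts hold no outlying library and no differences in tissue content, so they do not show how the fit handles either. Exon lengths matched 93.0% of genes.

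The members and all gene lists were chosen with earlier results of these data known. Named genes are the members, Kif20a, called pathway genes (up to 3 per comparison), the 3 genes most like each called member, and markers near 0 of lists that moved with a member. Unc5a, Unc5b, Pitpna, genes called without germline knockout replicate 2 and the other named markers were chosen after their values were seen. Alternatives covered the pseudocount, filter, scaling, variance model, array weights, length scale, replicate block and each library left out.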

Additional observations from a re-analysis of the deposited data

Results flagged for a closer look

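Slit2 and Slit3 stood out because every germline knockout lay above and every inducible knockout below the mean log2 level of its wild types. The log2 fold change of Slit2 was 0.2732 after germline and -0.3394 after induced knockout. For Slit3 it was 0.9141 and -0.3177. The difference between the comparisons was not tested.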

How the results depend on the processing

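No member changed the direction of a call under any alternative. The call of Robo3 in the inducible comparison was also lost with eBayes without trend and with array weights, and array weights added Robo2 as lower in the germline comparison. Germline calls over all genes (93 lower, 289 higher) were 180 lower without a filter, and 484 lower and 560 higher with array weights, where 53.6% of the calls were higher against 75.7%. They ranged from 42 to 642 lower and from 115 to 617 higher when single libraries were left out, with 47.8% higher without knockout replicate 2. Inducible calls (69 lower, 113 higher) were 145 and 212 without a filter, 33 and 39 with a mean of at least 50, and 38 and 41 on the length scale, where 51.9% were higher against 62.1%. They ranged from 44 to 89 lower and from 80 to 250 higher when single libraries were left out. Pathway genes outside the members went from 0 to 2 lower and 1 higher in the germline comparison with array weights, and ranged from 0 to 4 lower and from 0 to 1 higher with single libraries left out. The 1 inducible call among them, Ntng1, was 0 on the length scale and ranged from 0 to 1 with single libraries left out. Under the replicate block there were 98 lower and 278 higher germline genes and 53 lower and 110 higher inducible genes, 0 pathway genes were called in the inducible comparison, and Robo3 was called higher in the germline comparison. Deviations of same-numbered libraries from the group means correlated at -0.116, 0.306 and 0.247 (germline) and -0.352 and -0.051 (inducible). Germline wild-type replicate 3 correlated best with knockout replicate 1 (0.334). Deviations cancel within a group, and those of the 2 inducible wild types mirror each other, so these values cannot decide whether libraries are paired. As the labels name no pairs, the numbers were not treated as pairs. The cause of these shifts was not tested beyond the genes and libraries each setting leaves out.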
